A study of Mus musculus with 16 samples.

Results

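Interferon-stimulated genes are genes of antiviral and antimicrobial defense that cells switch on after an interferon binds its receptor. A list of 47 such genes was followed here in CD11b+ cells of the mouse brain. Genes were kept when they had more than 10 counts in at least 4 of the 16 libraries, and 47 of 47 listed genes met this condition, among 14565 genes that met it in a table of 24421 rows. The rule itself used names and counts over all libraries.

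RNA-Seq was performed on the CD11b+ fraction of dissociated brain tissue from female C57BL/6J mice, with 1 library per mouse (4 CON mice, 5 MAL mice, 7 MAL-BG mice). CON mice were on standard chow after weaning for 1 month, MAL mice were on an isocaloric diet low in protein and fat, and MAL-BG mice had the MAL diet and oral gavages of E. coli and Bacteroidales commensals. CON and MAL mice were gavaged with PBS, so all groups share the gavage, and no group received the bacteria on standard chow. Microglia and other myeloid cells carry CD11b on their surface, and magnetic beads with an antibody to it were used to pull them out. The labels name cortical tissue and the methods name whole cerebra.

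Type I interferons signal through the kinases JAK1 and TYK2 to a complex that holds STAT2 and IRF9 and binds a DNA element called the interferon-stimulated response element (ISRE). Interferon gamma signals through JAK1 and JAK2 and acts on a DNA element called the gamma-activated sequence (GAS). Microglia express both receptors, and a low tone of interferon signaling is known from the healthy brain.

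Promoter sequence was not used to choose the members. Promoter sequences of RefSeq (GRCm38.p6, 300 bases from 250 before to 50 after a gene's start) matched 35 of 47 members by symbol. The letters GAAANNGAAA, the core of the ISRE, were searched on both strands, and 19 of these 35 members (54.3%) held them, against 429 of 11034 tested genes with a promoter entry (3.89%). The letters TTCNNNGAA of the GAS, which read the same on both strands, were held by 9 of the 35 members (25.7%) and by 917 of the 11034 genes (8.31%). With an entry for 74.5% of the members, below the 80% set for a check over a list, the shares are void as a description of all 47 and stand for these 35 genes. Usp18, Oas2, Dhx58, Zbp1, Ifi204, Rtp4, Mx1, Mx2, Parp9, Parp14, Ifi27, and Ifi27l2a had no entry.

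Stretches of promoter are given for the members that differed between MAL-BG and either other group and had an entry, to show which of them carry the element. Capitals mark the ISRE core, on either strand, and in Ifit2, which held none, the GAS. In Bst2 a pair of cores overlap, and in Ifit1 a pair lie apart.
Ifit1 (chr19:34640750-34640848, plus strand): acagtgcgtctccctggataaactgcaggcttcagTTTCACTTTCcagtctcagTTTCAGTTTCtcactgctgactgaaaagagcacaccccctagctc
Ifit2 (chr19:34550444-34550496, plus strand): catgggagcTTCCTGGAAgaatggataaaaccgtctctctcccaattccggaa
Stat2 (chr10:128270248-128270320, plus strand): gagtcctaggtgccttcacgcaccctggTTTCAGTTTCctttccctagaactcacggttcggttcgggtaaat
Oas3 (chr5:120777690-120777769, minus strand): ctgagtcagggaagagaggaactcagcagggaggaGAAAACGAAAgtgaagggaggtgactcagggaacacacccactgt
Eif2ak2 (chr17:78882523-78882589, minus strand): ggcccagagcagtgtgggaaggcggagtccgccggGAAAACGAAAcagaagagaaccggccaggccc
Bst2 (chr8:71537552-71537637, minus strand): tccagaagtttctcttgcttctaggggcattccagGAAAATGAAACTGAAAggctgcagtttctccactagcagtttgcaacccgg
Rsad2 (chr12:26456528-26456607, minus strand): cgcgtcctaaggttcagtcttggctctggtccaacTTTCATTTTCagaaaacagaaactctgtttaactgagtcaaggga
Trim30a (chr7:104465185-104465264, minus strand): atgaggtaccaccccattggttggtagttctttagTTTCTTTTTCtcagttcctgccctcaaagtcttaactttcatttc

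The first base of the core lay 104 and 85 bases before the start in Ifit1, 222 in Stat2, 75 in Oas3, 130 and 124 in Bst2, 120 in Rsad2, and 36 in Trim30a, and in Eif2ak2 it lay after the start. A match of letters is a description of these windows and was not tied to binding. The 5 members that were higher in MAL-BG in a comparison (Ifit1, Eif2ak2, Bst2, Rsad2, and Trim30a) and Stat2 and Oas3 among those that were lower held the ISRE core, so the element is in promoters of members of both directions.

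Total counts per library were 10312703 to 13461574 in CON, 10864121 to 12819982 in MAL, and 14191791 to 18705202 in MAL-BG. Levels are CPM (counts scaled to a common library size) after TMM scaling, and a level set against that of another gene is CPM per kilobase of exon. Genes of microglia were high in every library, with Tmem119 at a mean of 1255, 1321, and 2659 CPM in CON, MAL, and MAL-BG. The summed level of 15 microglia markers was 20131 to 32546 CPM in CON, 20686 to 35240 in MAL, and 42819 to 59308 in MAL-BG, and 10 of the 15 were higher in MAL-BG in each comparison, with none at 0. Choroid plexus markers moved the other way, with sums of 13856 to 53853, 6429 to 42331, and 1768 to 16475 CPM, and 10 of 10 fell against CON and 9 against MAL. Neutrophil markers summed to 509 to 1248, 537 to 1126, and 617 to 14377 CPM, with the highest value in MAL-BG replicate 5, and 12 of 15 were higher in MAL-BG in each comparison. Neuron markers had mean sums of 148, 108, and 33.2 CPM, with 8 of 9 lower in MAL-BG in each comparison, and astrocyte markers 569, 563, and 299 CPM, with 4 and 5 of 9 lower. Endothelial markers were higher in 3 and 6 of 11, and lymphocyte markers summed to 48.6 to 75.1, 52.8 to 77.8, and 109 to 230 CPM. Monocyte markers were lower in MAL-BG in 2 of 10 against CON and 4 of 10 against MAL, with 0 higher. Border macrophage markers were lower in 1 and 2 of 9, with 0 higher. Of plasmacytoid dendritic cells, which make large amounts of type I interferon, the markers Ccr9 and Klk1 were under 1 CPM on average in each group. Most of the list's sum was Lair1 (301, 342, and 493 CPM). Ly6d was at 0.94, 1.37, and 2.15 CPM, Cox6a2 at 1.46, 1.32, and 2.50, and Pacsin1 at 24.1, 18.8, and 11.0. Of 5 markers tested, 2 were higher and 1 lower in MAL-BG against CON, and 0 higher and 1 lower against MAL. In bulk samples fewer cells of a type and less RNA per cell cannot be told apart, and the part of these shifts in the results on the members was not tested.

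**Figure D1:**
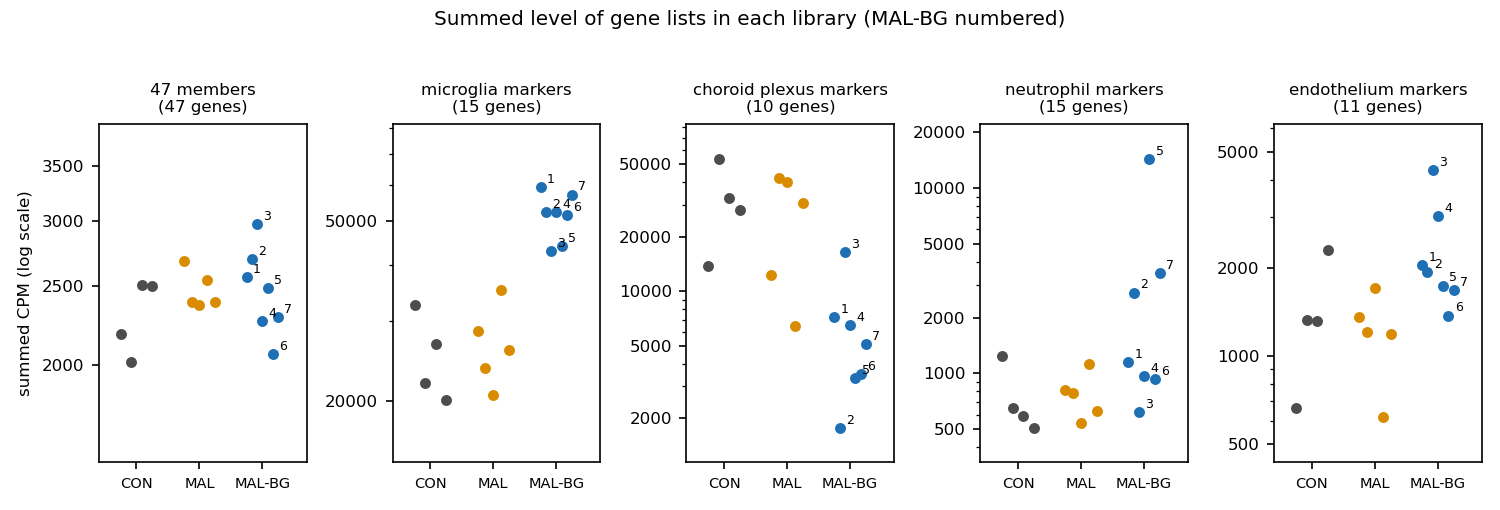
Summed CPM on a log axis for the 47 members and for marker lists of microglia, choroid plexus, neutrophils, and endothelium, with 1 point per library and the running number beside MAL-BG libraries. The members' sum overlaps between the groups (2014 to 2504 CPM in CON, 2365 to 2679 in MAL, 2063 to 2970 in MAL-BG), while the microglia sums of MAL-BG lie above those of CON and MAL.

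With TMM scaling, the members as a group did not move in 1 direction in MAL-BG. Against CON, 5 members were higher in MAL-BG (Ifit1, Bst2, Rsad2, Eif2ak2, and Trim30a), where 11.4% of all genes tested were higher, and 3 were lower (Stat2, Oas2, and Mx1), where 21.7% of all genes were lower. These are 10.6% and 6.38% of the 47. A gene counted when its adjusted p was under 0.05 and its absolute log2 fold change above 0.58 in the quasi-likelihood test of edgeR, adjusted by Benjamini and Hochberg over 14565 genes. The members' share was close to the background for higher genes and below it for lower genes. Their median log2 fold change was 0.087, with 28 above 0 and 19 below, beside -0.041 over all genes.

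Against MAL, 2 members were higher in MAL-BG (Bst2 and Rsad2), where 10.2% of all genes were higher, and 6 were lower (Ifit2, Stat2, Oas2, Oas3, Zbp1, and Mx1), where 20.2% of all genes were lower. These are 4.26% and 12.8% of the members, both under the background. The median log2 fold change was -0.045, with 21 above 0 and 26 below, beside -0.027 over all genes. It turned to 0.015 without MAL replicate 1 and to 0.021, 0.020, and 0.022 without MAL-BG replicate 4, 6, or 7. Both comparisons use the same 7 MAL-BG libraries. In all, 5 members passed the test in both comparisons (Stat2, Oas2, and Mx1 lower, Bst2 and Rsad2 higher), 11 in 1 or both, and 36 in neither.

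Library by library, the 7 MAL-BG libraries lay above the 9 others in 1 member, Trim30a, where this held for 6.17% of all genes, and below them in 1 member, Stat2, where it held for 6.36% of all genes. For the other 45 members the ranges overlapped.

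Over all genes, the split of the calls into higher and lower depended on 1 of the alternatives. It changed 2 choices together, scaling by the mean log2 CPM and offsets for gene length and GC content, and is called the combined setting here. Under it the median over all genes moved on the log2 scale by 0.30 against CON and 0.27 against MAL, and the higher share of all calls went from 34.4% to 61.4% and from 33.4% to 61.5%. With DESeq2 size factors it was 36.3% and 36.6%, and with upper-quartile scaling 32.8% and 30.9%. In the combined setting 11 members were higher and 0 lower against CON, where 24.8% of all genes were higher and 15.6% lower, and 5 were higher and 2 lower against MAL, where 22.8% were higher and 14.3% lower. The gained calls against CON were Usp18 (0.69), Irf9 (0.75), Samhd1 (0.64), Slfn5 (0.67), Dtx3l (0.76), and Xaf1 (0.75), and against MAL Ifit1, Eif2ak2, and Trim30a. For the members the split against CON also turned on a single library. Without CON replicate 2, Bst2 alone was higher, and Stat2, Oas2, and Mx1 were lower, where 9.54% of all genes were higher and 18.5% lower.

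Relative to all genes the members' median lay 0.13 higher against CON and 0.057 higher in the combined setting. It ran from 0.047 without MAL-BG replicate 3 to 0.21 without MAL-BG replicate 6. Against MAL it differed by -0.018, and by 0.060 without MAL-BG replicate 6 and 0.041 without MAL replicate 1, so its sign rested on single libraries.

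**Figure D2:**
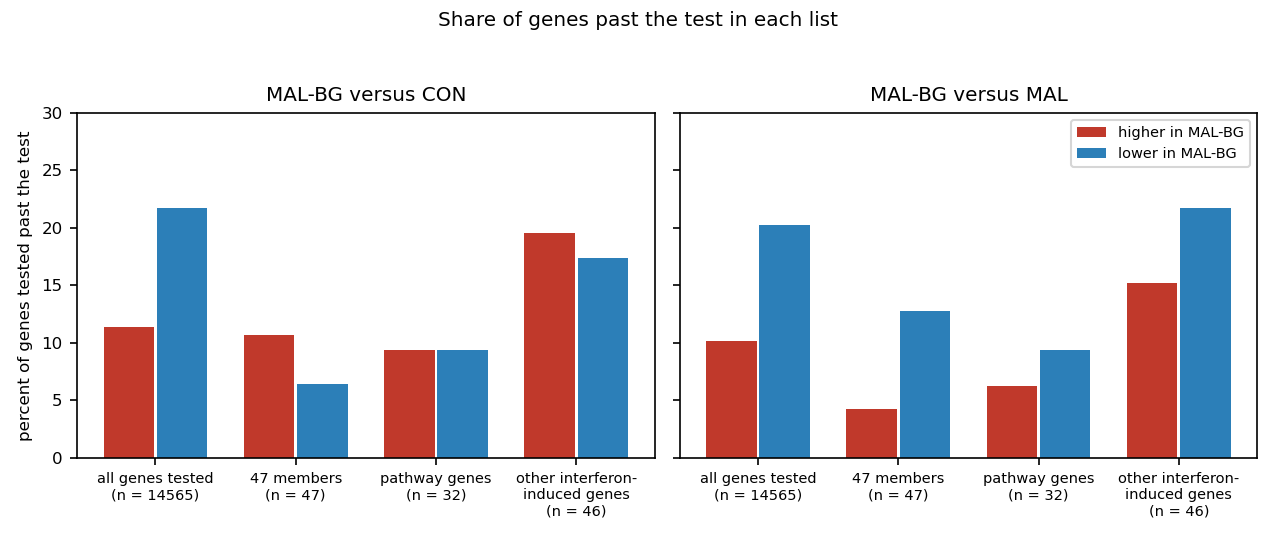
Percent of genes tested that passed the test, higher (red) or lower (blue) in MAL-BG, for all genes tested, the 47 members, 32 pathway genes, and 46 other interferon-induced genes, with TMM scaling. The members' bars lie at or below those of all genes in both comparisons.

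Between MAL and CON, edgeR's test passed 0 of 47 members and 0% of the 14565 genes, and DESeq2 also passed 0 of both. At an unadjusted p under 0.05 there were 0 members and 212 genes. The fitted log2 fold changes of the members ran from -0.26 for Ifi27 to 0.53 for Mx1, with a median of 0.15, and 37 of 47 lay above 0, beside a median of -0.019 over all genes, of which 6642 lay above 0. Without CON replicate 1 or 2 these were 32 and 33 of 47 with medians of 0.080 and 0.076, and without CON replicate 4 the median was 0.21.

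**Figure D3:**
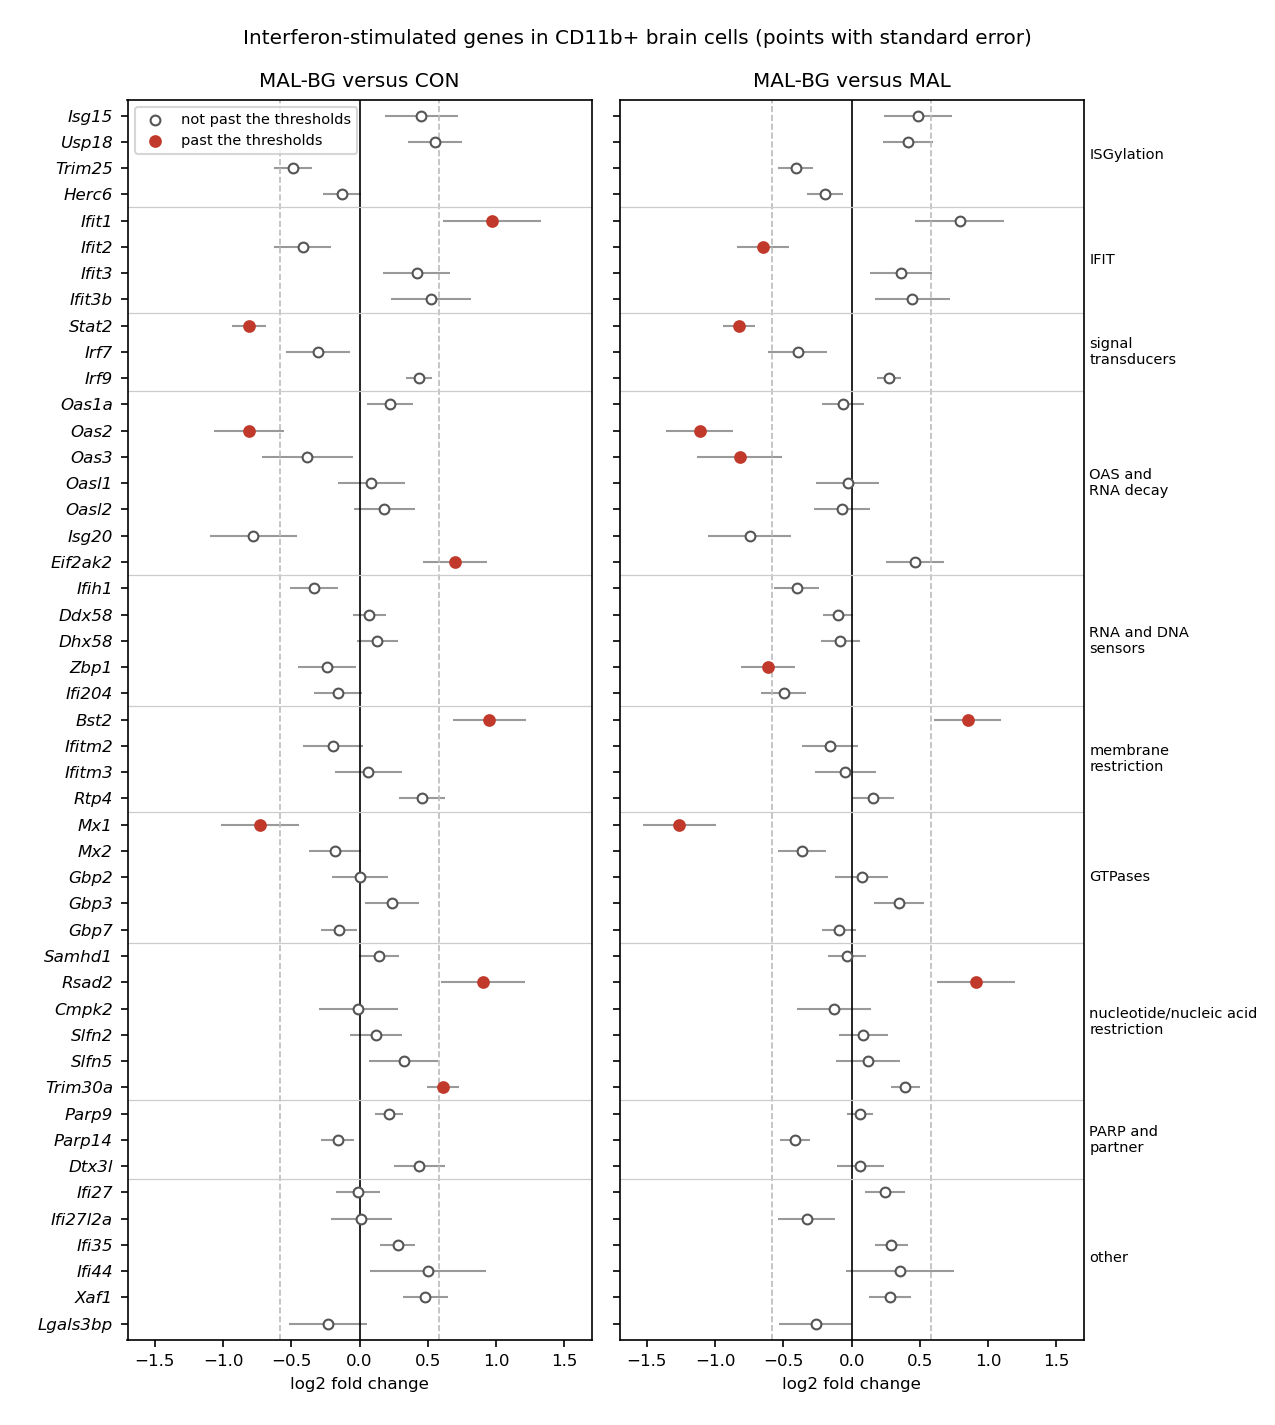
Log2 fold change of each member in MAL-BG against CON (left) and against MAL (right), with standard errors, ordered by role. Filled points passed an adjusted p under 0.05 and the fold threshold of 0.58 (dashed lines), 8 of 47 in each panel, and most open points lie between the dashed lines.

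The first role group attaches the ubiquitin-like protein ISG15 to other proteins. Trim25, a ubiquitin ligase that activates the RNA sensor RIG-I, had the highest mean CPM of the 4, while per kilobase of exon Isg15 was higher (30.3 against 18.2 CPM per kilobase in CON). The Trim25 levels were 99.1, 99.4, 111, and 109.5 CPM in CON and 101, 88.8, 114, 85.5, and 109 CPM in MAL, and in MAL-BG they ran from 56.5 over a median of 76.2 to 94.0 CPM. The MAL-BG range lies below CON and overlaps MAL. On the log2 scale Trim25 differed by -0.49 ± 0.14 (SE) from CON (adjusted p = 0.00925) and by -0.41 ± 0.13 from MAL (adjusted p = 0.0175), which is under the fold threshold in both. Isg15 itself was at 22.9 ± 4.71 CPM in CON (SD, n = 4), 22.4 ± 3.596 in MAL (n = 5), and 31.4 ± 13.5 in MAL-BG (n = 7), with 0.45 ± 0.27 on the log2 scale against CON (adjusted p = 0.181) and 0.49 ± 0.25 against MAL (adjusted p = 0.123). Usp18, the protease that removes ISG15 and restrains the type I receptor, had 0.55 ± 0.20 against CON (adjusted p = 0.0311), under the fold threshold. Herc6, the mouse ligase for ISG15, had -0.13 ± 0.14. In this group 0 of 4 passed the test in either comparison.

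The IFIT proteins bind viral RNA and halt its translation. Ifit1 (chromosome 19 from 34640889 to 34650009), which recognizes RNA with an incomplete cap, rose against CON by 0.97 ± 0.36 on the log2 scale (adjusted p = 0.0356), from 13.4 ± 5.86 to 26.3 ± 17.0 CPM, and had 0.79 ± 0.33 against MAL (adjusted p = 0.0585). The rise leaned on MAL-BG replicate 3, at 64.0 CPM where the next library had 24.9, and without it the difference from CON was 0.58 (adjusted p = 0.0483), just under the fold threshold. The call against CON was also lost without CON replicate 1, 2, or 3 (adjusted p = 0.0976, 0.105, and 0.0683), and DESeq2's test called Ifit1 against MAL (0.82, adjusted p = 0.0280). Ifit2 (chromosome 19 from 34550550 to 34576534), a partner of IFIT1 in RNA binding, moved the other way, from 24.95 ± 2.86 CPM in MAL to 15.9 ± 4.50 in MAL-BG (log2 fold change -0.65 ± 0.19, adjusted p = 0.0119), and had -0.42 ± 0.21 against CON (adjusted p = 0.109). Without MAL-BG replicate 2, 4, or 7 its fold against MAL was -0.53, -0.53, and -0.57, under the threshold, and in the combined setting it was -0.47. So Ifit1 and Ifit2, which lie close on chromosome 19 with Ifit3 and Ifit3b between them, had opposite signs in both comparisons.

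Ifit3, which had the highest level of the 4 IFIT genes per kilobase of exon (13.9, 14.4, and 18.5 CPM per kilobase), was at 21.0, 17.6, 22.4, and 35.8 CPM in CON, at 27.4, 24.0, 23.1, 28.8, and 22.3 CPM in MAL, and from 21.5 over 30.2 to 58.2 CPM in MAL-BG. The 3 ranges overlap, and the log2 fold changes of 0.42 ± 0.24 and 0.36 ± 0.23 did not pass (adjusted p = 0.173 and 0.201). Ifit3b had 0.52 ± 0.29 and 0.45 ± 0.27. These paralogs share 56.2% of the 40-base windows of Ifit3, so reads may have been split between them and both values are uncertain. MAL-BG replicate 3 was the highest MAL-BG library in each of the 4 IFIT genes. Its endothelial markers (11 genes, 4325 CPM in sum, beside 1376 to 3001 in the other MAL-BG libraries) and choroid plexus markers (16475 CPM) were also the highest of the 7, and their part in the IFIT values was not tested.

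Stat2 (chromosome 10 from 128270498 to 128292853), the STAT protein that type I but not type II interferon engages, had the smallest adjusted p among the members in both comparisons. Its levels were 84.2, 69.9, 83.5, and 73.3 CPM in CON and 90.6, 74.9, 69.6, 78.3, and 79.0 CPM in MAL, and from 32.5 over 44.4 to 53.9 CPM in MAL-BG. The highest MAL-BG library lay below the lowest of the 9 others. Stat2 fell by 0.81 ± 0.13 on the log2 scale against CON (adjusted p = 0.000140) and by 0.83 ± 0.12 against MAL (adjusted p = 8.09e-05), and it passed in 16 of 16 fits that each left out 1 library, in both comparisons. In the combined setting it was -0.48 and -0.51 (adjusted p = 0.00705 and 0.00323), under the fold threshold.

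Irf9, which gives the complex with STAT2 its DNA contact, differed in the opposite direction, at 69.5 ± 5.02, 77.9 ± 9.06, and 94.0 ± 5.87 CPM in CON, MAL, and MAL-BG, with log2 fold changes of 0.44 ± 0.094 (adjusted p = 0.00152) and 0.27 ± 0.087 (adjusted p = 0.0182), under the fold threshold. Irf7, which drives transcription of type I interferon genes, had -0.31 ± 0.23 and -0.40 ± 0.22 (adjusted p = 0.297 and 0.148), and MAL-BG replicate 6 was its lowest library at 22.7 CPM. Per kilobase of exon, Stat2 and Irf9 stood at 13.1 and 12.9 CPM in CON and at 7.47 and 17.5 in MAL-BG. Among these 3 transducers 1 fell and 2 did not pass in each comparison.

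**Figure D4:**
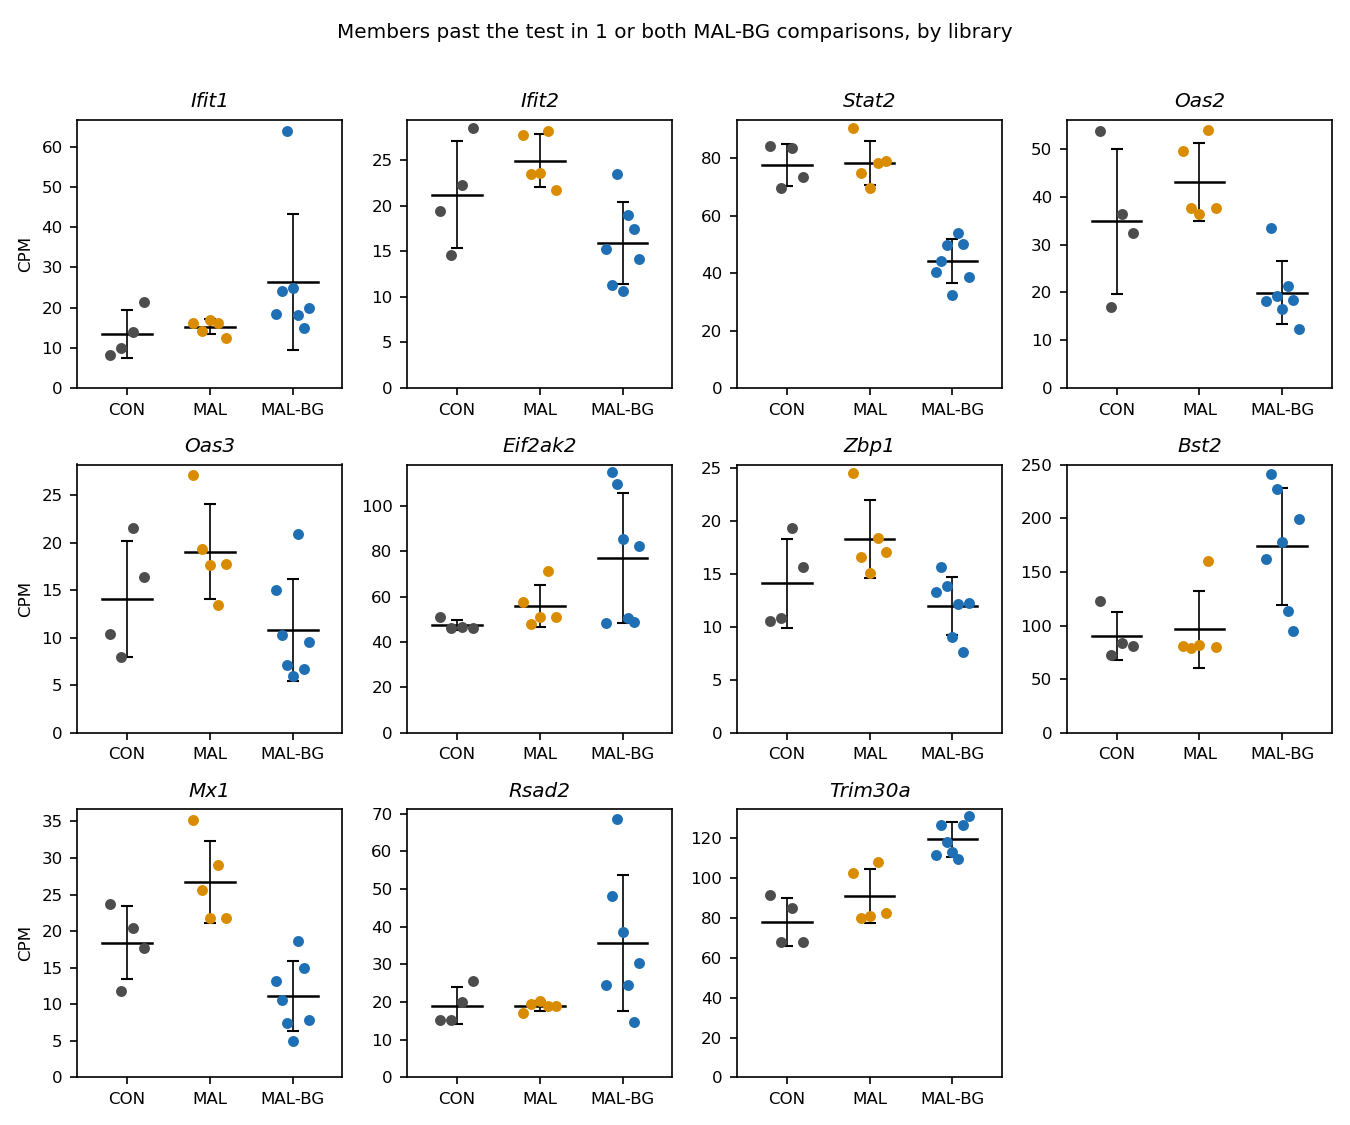
CPM in each library for the 11 members that passed the test in 1 or both MAL-BG comparisons, with the mean (line) and SD (bars) of each group. The MAL-BG points of Stat2 lie below and those of Trim30a above all others, while in the other 9 panels they overlap at least 1 group. In Oas2 and Mx1 they overlap CON and lie below MAL.

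Oligoadenylate synthetases sense double-stranded RNA and make the oligoadenylates that activate RNase L, which degrades RNA in the cell. Oas2 (chromosome 5 from 120730333 to 120749886) was at 53.8, 17.0, 36.4, and 32.4 CPM in CON, at 49.6, 37.7, 36.4, 54.1, and 37.7 CPM in MAL, and from 12.4 over 18.5 to 33.4 CPM in MAL-BG. The MAL-BG libraries lie below those of MAL, with MAL-BG replicate 2 the highest, and overlap CON through CON replicates 2 and 4. Oas2 fell by 1.11 ± 0.24 against MAL (adjusted p = 0.00180) and by 0.81 ± 0.26 against CON (adjusted p = 0.0179), where it did not pass in the combined setting (-0.58, adjusted p = 0.0914) or without CON replicate 1 (-0.52, adjusted p = 0.103), MAL-BG replicate 4 (adjusted p = 0.0501), or MAL-BG replicate 7 (adjusted p = 0.0514). Oas3 (chromosome 5 from 120753098 to 120777684), its neighbor, fell by 0.82 ± 0.31 against MAL (adjusted p = 0.0407), from 19.1 ± 5.02 to 10.8 ± 5.39 CPM, and passed in 7 of 16 fits without 1 library and not in the combined setting (-0.44, adjusted p = 0.225). Against CON it had -0.38 ± 0.33, and 0.010 in the combined setting.

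The remaining synthetases did not pass. Oas1a had log2 fold changes of 0.22 ± 0.17 and -0.065 ± 0.15 and shares 63.2% of its 40-base windows with Oas1g, so its reads are uncertain. Oasl2 had 0.18 ± 0.22 and -0.070 ± 0.21, and Oasl1, which blocks translation of Irf7, had 0.087 ± 0.25 and -0.030 ± 0.23. Isg20, an exonuclease of RNA, was low at 5.62 ± 1.25, 5.51 ± 1.25, and 3.26 ± 1.65 CPM and had -0.78 ± 0.32 and -0.75 ± 0.30 (adjusted p = 0.0578 and 0.0542). DESeq2's test called it lower in both (adjusted p = 0.0445 and 0.0407), and so did upper-quartile scaling and thinned counts against MAL (adjusted p = 0.0490 and 0.0393) and, in both comparisons, the fit without MAL-BG replicate 5 (-1.02 and -0.98).

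Eif2ak2 (chromosome 17 from 78850504 to 78882572) encodes PKR, a kinase that stops translation on double-stranded RNA. It rose against CON by 0.70 ± 0.23 (adjusted p = 0.0223), from 47.5 ± 2.27 to 77.1 ± 28.6 CPM, and had 0.46 ± 0.21 against MAL (adjusted p = 0.0881). MAL-BG replicates 2, 3, 4, and 7 were at 115, 109.7, 85.4, and 82.2 CPM and replicates 1, 5, and 6 at 48.3, 50.4, and 48.9 CPM, inside the range of MAL. It lost the call against CON without CON replicate 2, 3, or 4 (adjusted p = 0.0552, 0.0529, and 0.0534). Over the 7 genes of this role 1 was higher and 1 lower against CON, and 0 higher and 2 lower against MAL.

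Cytosolic sensors of nucleic acid gave 0 of 5 calls against CON and 1 against MAL. Ddx58, which encodes RIG-I and had the highest mean CPM of them without regard to length, was at 43.7, 36.3, 45.9, and 43.3 CPM in CON, at 52.6, 45.7, 43.0, 49.6, and 47.1 CPM in MAL, and from 34.0 over 43.2 to 51.7 CPM in MAL-BG. The ranges overlap, with log2 fold changes of 0.072 ± 0.12 and -0.098 ± 0.11. Zbp1 (chromosome 2 from 173206612 to 173218959), a sensor of Z-form nucleic acid that can trigger necroptosis, fell by 0.61 ± 0.20 against MAL (adjusted p = 0.0187), from 18.3 ± 3.66 to 11.99 ± 2.76 CPM. It did not pass without MAL replicate 1 or MAL-BG replicate 4, 6, or 7, with values between -0.57 and -0.49, or in the combined setting (-0.47, adjusted p = 0.0512), and had -0.24 ± 0.21 against CON. Ifi204, a DNA sensor, had -0.50 ± 0.16 against MAL (adjusted p = 0.0216), under the fold threshold, and shares 37.0% of its windows with other genes of its family. Ifih1 (MDA5) had -0.34 ± 0.18 and -0.40 ± 0.17 (adjusted p = 0.129 and 0.0579), and Dhx58 (LGP2), a regulator of both RNA sensors, 0.13 ± 0.15 and -0.085 ± 0.14.

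Bst2 (chromosome 8 from 71534255 to 71537472) encodes tetherin, which holds budding virus at the cell surface. Its levels were 123, 72.1, 83.8, and 81.1 CPM in CON, 80.5, 79.4, 82.1, 161, and 79.95 CPM in MAL, and from 94.8 over 178 to 241 CPM in MAL-BG. CON replicate 1 and MAL replicate 4 were high in their groups and inside the MAL-BG range, in which replicates 1, 5, and 6 were the lowest. Bst2 rose by 0.95 ± 0.27 against CON (adjusted p = 0.00868) and by 0.85 ± 0.25 against MAL (adjusted p = 0.0106), and it passed in 16 of 16 fits without 1 library in both comparisons and under each of the scalings tried. CON replicate 1 and MAL replicate 4 also had the highest microglia sums of their groups (32546 and 35240 CPM), and the part of the marker shift in this rise was not tested.

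The other membrane proteins did not pass. Ifitm3, which blocks fusion of virus in endosomes and had the highest level of the members per kilobase of exon in each group (196, 212, and 205 CPM per kilobase), had log2 fold changes of 0.064 ± 0.24 and -0.045 ± 0.23. Ifitm2 had -0.20 ± 0.22 and -0.16 ± 0.21 and shares 51.8% of its windows with other genes, 37.2% with the overlapping Gm45717. Rtp4, a Golgi chaperone of receptors, had 0.46 ± 0.17 against CON (adjusted p = 0.0355), under the fold threshold, and 0.16 ± 0.15 against MAL.

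Among the GTPases, Mx1 (chromosome 16 from 97447035 to 97462906) fell in both comparisons. MX proteins form rings that trap viral nucleoproteins, and C57BL/6 mice carry an Mx1 allele that gives no working protein. The levels were 23.7, 11.9, 20.4, and 17.7 CPM in CON, 35.2, 25.7, 21.8, 29.0, and 21.8 CPM in MAL, and from 4.98 over 10.7 to 18.7 CPM in MAL-BG. The MAL-BG libraries lie below the 5 of MAL, with replicates 1, 5, and 6 the highest of them, and overlap CON. Against MAL, Mx1 fell by 1.26 ± 0.27 (adjusted p = 0.00146) and passed in 16 of 16 fits without 1 library. Against CON it fell by 0.73 ± 0.29 (adjusted p = 0.0468) and passed in 3 of these 16 fits, with adjusted p up to 0.133 (without CON replicate 1). It also missed the threshold when genes were not filtered on low counts (adjusted p = 0.0587), with 2 groups in the fit (adjusted p = 0.0868), with thinned counts (adjusted p = 0.0532), and in the combined setting (-0.54, adjusted p = 0.142), so this call stands at the edge.

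Mx2 had -0.18 ± 0.19 and -0.37 ± 0.18 (adjusted p = 0.461 and 0.103). The guanylate-binding proteins, which attack the vacuoles of bacteria and parasites, did not pass, with Gbp2 at 0.0032 ± 0.21 and 0.072 ± 0.19, Gbp3 at 0.24 ± 0.20 and 0.35 ± 0.19, and Gbp7 at -0.15 ± 0.13 and -0.096 ± 0.12. Gbp3 was at 80.3 CPM in MAL-BG replicate 3 and at 39.6 to 48.2 CPM in the other MAL-BG libraries.

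Rsad2 (chromosome 12 from 26442743 to 26456452) encodes viperin, which makes a nucleotide that ends viral RNA chains. It was at 15.4, 15.3, 20.0, and 25.5 CPM in CON, at 17.0, 19.5, 20.4, 18.9, and 18.9 CPM in MAL, and from 14.8 over 30.3 to 68.4 CPM in MAL-BG. Replicates 1, 5, and 6 were the lowest of MAL-BG and replicate 3 the highest, and replicate 6 lay below the 9 other libraries. Rsad2 rose by 0.90 ± 0.31 against CON (adjusted p = 0.0253) and by 0.91 ± 0.29 against MAL (adjusted p = 0.0163). Against MAL it passed in 16 of 16 fits without 1 library, and against CON it missed the threshold without CON replicate 1, 2, or 3 (adjusted p = 0.0632, 0.0783, and 0.0505). Cmpk2, a nucleotide kinase whose gene lies beside it (chromosome 12 from 26469117 to 26479837, on the opposite strand), had -0.010 ± 0.29 and -0.13 ± 0.27. The ISRE core was found in the promoter of Rsad2 and not in that of Cmpk2.

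Trim30a (chromosome 7 from 104409025 to 104465193), a ubiquitin ligase that restrains inflammatory signaling, was at 91.5, 68.0, 85.1, and 68.2 CPM in CON, at 103, 80.2, 81.0, 108, and 82.7 CPM in MAL, and from 109 over 118 to 131 CPM in MAL-BG. The lowest MAL-BG library (109.5 CPM) lay just above the highest of MAL (108.4 CPM). It rose by 0.61 ± 0.12 against CON (adjusted p = 0.000659), where the fold fell to 0.55 without CON replicate 2 or 4. Against MAL the log2 fold change of 0.39 ± 0.11 (adjusted p = 0.00761) was under the fold threshold, and it was 0.59 and passed in the combined setting, while with upper-quartile scaling the ranges touched and 0 members lay apart above.

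The other genes of this role did not pass with TMM scaling. Samhd1, which depletes the deoxynucleotides that viruses need, had 0.14 ± 0.15 and -0.033 ± 0.14 at 207 ± 38.4, 233 ± 20.6, and 228 ± 43.7 CPM. Slfn2 had 0.12 ± 0.19 and 0.087 ± 0.18, and Slfn5 0.32 ± 0.25 and 0.12 ± 0.23. In all, 2 of 6 were higher against CON and 1 against MAL, with 0 lower in both.

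Parp9, Parp14, and Dtx3l modify proteins with ADP-ribose and ubiquitin, and 0 of 3 passed. Parp14, with the highest mean CPM of the 3 without regard to length, was at 102, 75.0, 96.2, and 90.0 CPM in CON, at 131, 91.0, 107, 109, and 102 CPM in MAL, and from 66.6 over 79.1 to 101 CPM in MAL-BG. The ranges overlap. Parp14 differed from MAL by -0.42 ± 0.11 on the log2 scale (adjusted p = 0.00675), under the fold threshold, and from CON by -0.16 ± 0.12. Dtx3l and Parp9, partners in 1 complex whose genes overlap on opposite strands, had 0.44 ± 0.19 and 0.22 ± 0.10 against CON (adjusted p = 0.0669 and 0.0977) and 0.063 ± 0.17 and 0.062 ± 0.096 against MAL. The strand setting of the counting is not given in the sources used here, so reads in the overlap cannot be assigned to 1 of them.

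The last 6 members have mixed roles, and 0 of 6 passed. Lgals3bp, a secreted glycoprotein that binds galectins, was at 173, 174, 195, and 189 CPM in CON, at 191, 182, 181, 184, and 195 CPM in MAL, and from 79.5 over 102 to 278 CPM in MAL-BG. The 9 CON and MAL libraries lie close together, while MAL-BG replicates 1, 5, and 6 were at 278, 207, and 231 CPM, above all 9, and replicates 2, 3, 4, and 7 at 79.5, 102, 90.6, and 101 CPM, below all 9. Its log2 fold changes of -0.23 ± 0.29 and -0.26 ± 0.27 therefore describe no single MAL-BG library. Ifi35 had 0.28 ± 0.13 and 0.29 ± 0.12 (adjusted p = 0.0938 and 0.0633), Xaf1, which promotes apoptosis, 0.48 ± 0.17 (adjusted p = 0.0262, under the fold threshold) and 0.28 ± 0.15, and Ifi44 0.50 ± 0.43 and 0.35 ± 0.39. The mitochondrial proteins Ifi27 and Ifi27l2a had -0.013 ± 0.16 and 0.013 ± 0.22 against CON and 0.24 ± 0.15 and -0.33 ± 0.21 against MAL.

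The 7 MAL-BG libraries differed among themselves in the members. The mean log2 CPM over the 47 was 5.02 ± 0.21 (SD, n = 4) in CON, 5.18 ± 0.087 (n = 5) in MAL, and 5.07 ± 0.22 (n = 7) in MAL-BG, where it ran from 4.80 in replicate 6 to 5.41 in replicate 3. Replicate 3 was the highest of the 7 in 20 of 47 members (42.6%, beside 25.1% of all genes) and replicate 6 the lowest in 22 (46.8%, beside 26.8% of all genes). Replicate 3 was the lowest of the 7 in 0 members (22.4% of all genes), and replicate 4 the highest in 0 (2.86% of all genes). Replicate 4 was the lowest in 11 (23.4%, beside 5.59% of all genes) and replicate 7 in 9 (19.1%, beside 8.4%).

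**Figure D5:**
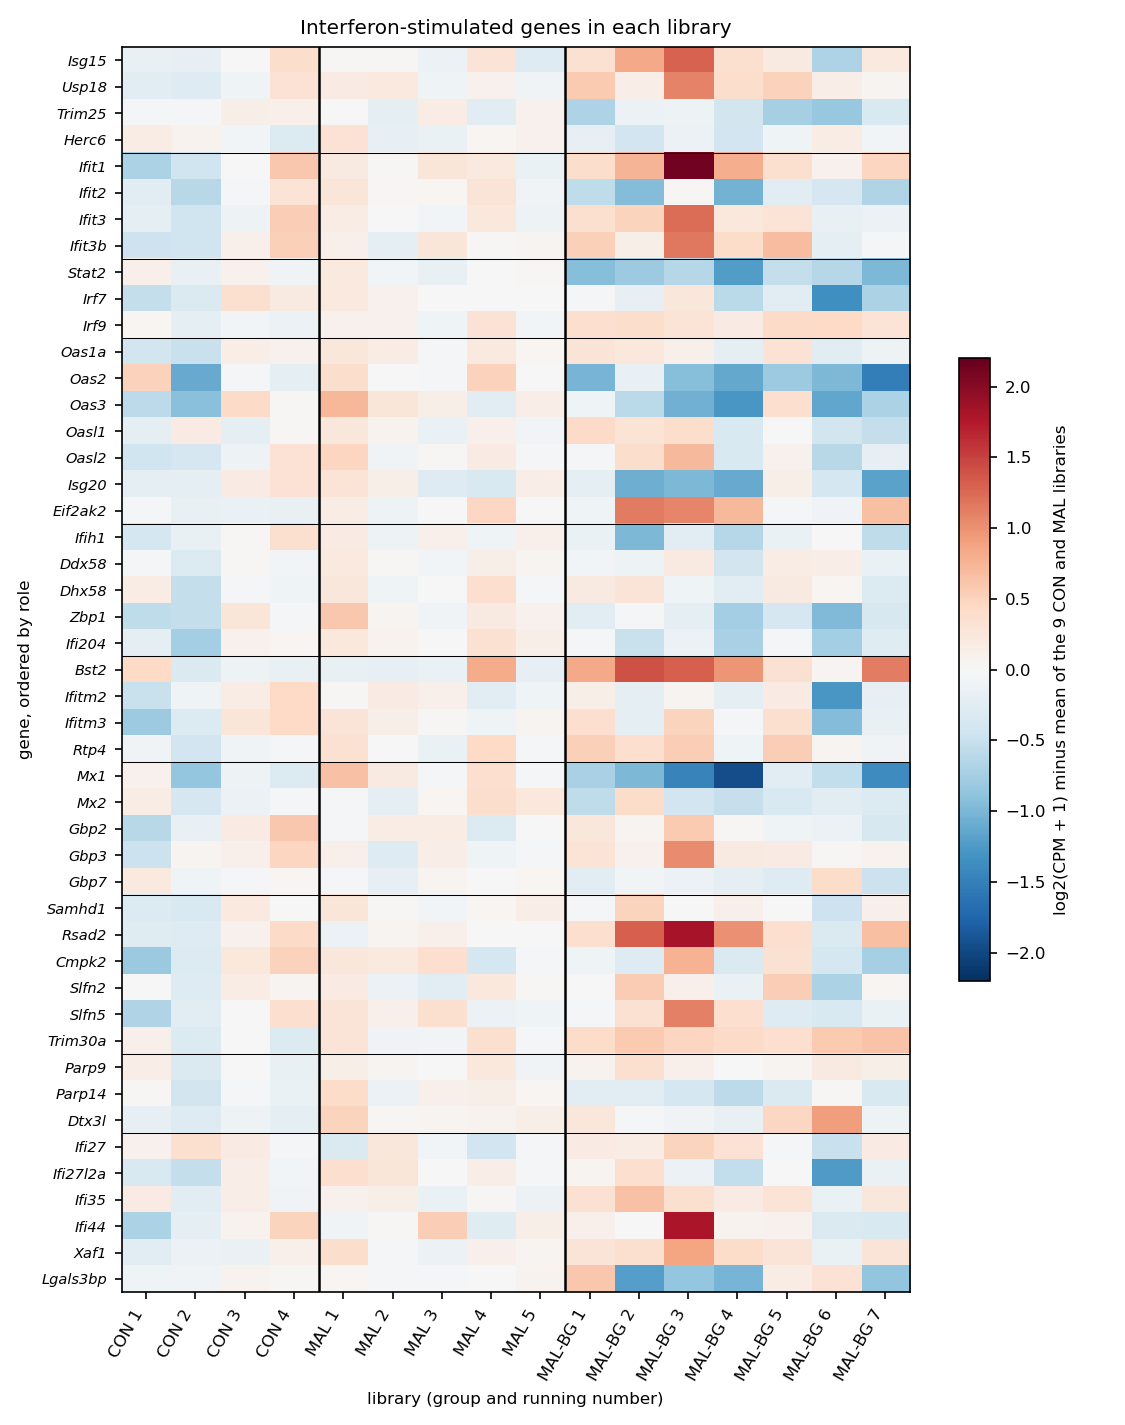
The 47 members in each library as log2(CPM + 1) minus the mean of the 9 CON and MAL libraries, ordered by role, with black lines between groups and roles. MAL-BG replicate 3 is red in Ifit1, Ifi44, and Rsad2, Stat2 is blue in all 7 MAL-BG libraries, and Lgals3bp is red in MAL-BG replicates 1, 5, and 6 and blue in the other 4.

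The genes that carry the interferon signal were taken from a list of 40, of which 32 passed the filter. Against CON 3 were higher and 3 lower, and against MAL 2 were higher and 3 lower. These shares of the 32 lay below those of all genes (11.4% higher and 21.7% lower against CON, 10.2% and 20.2% against MAL). Of 9 interferon genes 1 passed the filter, Ifng, at 1.34, 1.56, and 2.31 CPM in CON, MAL, and MAL-BG (log2 fold change 0.78 against CON, adjusted p = 0.215). Ifnb1 reached at most 14 counts in a library, and Ifna1, Ifna2, Ifna4, Ifna5, Ifnl2, Ifnl3, and Ifnk had 0 counts in 16 of 16 libraries, which allows up to 0.291 CPM each in the smallest one (3 counts, for counting error only).

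Of 6 receptor genes, Ifngr1, a chain of the interferon gamma receptor, was higher in both comparisons (log2 fold changes 0.89 and 0.71, adjusted p = 0.000424 and 0.00122), and Ifnar1, a chain of the type I receptor, had -0.023 and 0.014. Of 3 kinases, Jak2 fell by 0.61 against MAL (adjusted p = 0.000902). Of 7 transcription factors, Irf1, an activator of interferon-gamma targets, fell by 1.204 and 1.13 (adjusted p = 7.36e-05 and 7.78e-05), from 305 and 291 to 133 CPM. Of 10 genes of sensing, Tmem173 (STING) was higher by 1.02 and 1.01 (adjusted p = 0.000853 and 0.000530), and Ticam1 fell by 0.59 against CON (adjusted p = 0.00237). Of 5 negative regulators, Socs3 fell by 2.13 and 2.23 (adjusted p = 1.22e-05 and 8.35e-06), and Pias1 was higher against CON by 0.67 (adjusted p = 0.00102).

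Of 50 further interferon-induced genes, 46 were tested, and 9 were higher and 8 lower in MAL-BG against CON, and 7 higher and 10 lower against MAL. The shares of higher genes among the 46 lay above those of all genes (11.4% against CON and 10.2% against MAL). The shares of lower genes lay nearer to those of all genes (21.7% and 20.2%). Their median log2 fold change was 0.042 and -0.00011. Those that passed against CON with the largest folds were Slfn9 (-2.69), Ifit1bl1 (-2.03), Helz2 (-1.28), Ifi205 (-1.26), the chemokine Cxcl10 (-1.09), and Gbp9 (-1.04) among the lower ones, and Trim12c (1.003), the chemokine Ccl5 (0.94), Trim34a (0.93), and the GTPase Igtp (0.90) among the higher ones. Slfn9, Ifit1bl1, and Ifi205 were under 4 CPM in each group on average. The summed level of the 46 was above that of CON (1958 to 2393 CPM) and MAL (2048 to 2545 CPM) in all 7 MAL-BG libraries (2638 to 3145 CPM). Ly6e, a surface protein chosen here after its values were seen, made most of that gap, with 558 to 760 CPM in the 9 and 1086 to 1460 CPM in MAL-BG, and without it the sums overlapped (1400 to 1785 CPM in the 9, 1552 to 1792 in MAL-BG).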

How the data were processed

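RNA-Seq counts were analysed for 16 libraries, 1 per mouse, of the CD11b+ fraction. Libraries are numbered within a group by the order of their columns. The deposited values are whole-number counts per gene that the authors made from stranded paired reads, with STAR, HTSeq, and DESeq2 named in the submitters' processing notes. The strand option of the counting is not given in the sources used here. The study's code holds a batch term, but the batch of the libraries is not named in the sources used here, so none was fitted. The members and the lists of pathway, marker, and other interferon-induced genes were chosen with earlier results of these data known.

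Counts were scaled by TMM and fitted in 1 model of 3 groups by edgeR 4.0.16 (R 4.3.3) with its quasi-likelihood test and Benjamini-Hochberg adjustment over the 14565 genes that exceeded 10 counts in 4 or more libraries. The mean log2 CPM of a library used a prior count of 2, and the fold changes did not. The tests were checked on simulated data, with no outcome given here. DESeq2 1.42.0, other scalings, filters, and thresholds, thinned counts, and the omission of each library were alternatives. The p-values cover the spread between mice within a group, taken as independent. The paper states that mice were housed in groups, and the cage of a library is not named. With no term for batch or cage in the fit, their part in the group differences was not tested. Loci and promoter sequences were RefSeq entries of GRCm38.p6. Gene lengths, GC content, and shared windows came from a different annotation (GENCODE). In the count table, 27 rows whose names had become dates were left as given. Named by rule with values for each library were members called in both MAL-BG comparisons or apart from the other groups, and the member with the highest mean CPM in each remaining role. Other members are given by means and fold changes.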

Additional observations from a re-analysis of the deposited data

Results flagged for a closer look

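In 14 of 141 groups of 4 to 7 libraries, each 1 member in 1 group, the highest or lowest library stood off from the rest beyond the 95% critical value of Dixon's test. Chance gives about 1 in 20 for independent values with a normal spread, but these groups share their libraries. The rate over all genes was not counted, so an excess in the members is not shown. MAL-BG replicate 3 was the high library in 6 of the 14, and it was the highest MAL-BG library in 25.1% of all genes. It had 28.81 CPM of Usp18 (next library 20.05), 63.96 of Ifit1 (24.91), 58.24 of Ifit3 (34.63), 80.3 of Gbp3 (48.17), 176 of Slfn5 (105), and 20.68 of Ifi44 (5.719). The same library had the highest summed endothelial and choroid plexus markers of the 7, and their part in these values was not tested.

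MAL-BG replicate 2 was high in Oas2 at 33.41 CPM (next 21.26) and in Mx2 at 20.99 (12.96). MAL-BG replicate 6 was low in Ifitm2 at 21.63 CPM (next 46.77) and high in Gbp7 at 83.32 (60.61). Among the other groups, CON replicate 1 had 50.91 CPM of Eif2ak2 (next 46.66), CON replicate 2 had 16.14 of Rtp4 (next 20.65, low), MAL replicate 4 had 160.5 of Bst2 (82.08), and MAL replicate 1 had 53.63 of Dtx3l (41.33). Of the 11 members that passed the test in a comparison, Ifit1, Oas2, Eif2ak2, and Bst2 are among these.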

How the results depend on the processing

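With mean log2 CPM scaling and offsets for gene length and GC content together, members higher and lower numbered 11 and 0 against CON and 5 and 2 against MAL (24.8% and 15.6%, and 22.8% and 14.3%, of all genes), pathway genes called numbered 10 and 9 in place of 6 and 5, and Oas3 against CON turned to 0.010 on the log2 scale. Without a fold threshold, members higher and lower numbered 9 and 4 against CON and 4 and 9 against MAL (19.8% and 25.2%, and 20.2% and 24.1%, of all genes), and pathway genes called 13 and 12. A fit of the 2 compared groups only left 3 members higher against CON, where 10.4% of all genes were higher. Upper-quartile scaling left 0 members with all 7 MAL-BG libraries above the others.

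Leaving out 1 library at a time, members higher against CON numbered 1 to 7 (1 without CON replicate 2) and lower 1 to 4 (1 without CON replicate 1, MAL-BG replicate 4, or MAL-BG replicate 7). In the same fits 9.54% to 14.3% of all genes were higher and 18.2% to 23.2% lower, so the background moved too. Against MAL the members numbered 2 to 4 higher and 3 to 7 lower (3 without MAL-BG replicate 4 or 7), beside 8.85% to 12.3% and 16.9% to 21.6% of all genes. In these fits 1 or 2 members lay apart above (2 without MAL replicate 4). The cause of these shifts was not tested. For the 11 called members, 148 of the fold changes against CON in these fits kept their direction and side of the threshold and 28 lost the threshold. Against MAL 154 kept both, 16 lost it, and 6 gained it. The kept values include members that were not called in the main fit and stayed so. These were Ifit2, Oas3, and Zbp1 against CON, and Ifit1, Eif2ak2, and Trim30a against MAL. All losses fell on called members, with Mx1 against CON lost in 13 of 16 fits and Oas3 against MAL in 9 of 16. No paired analysis was possible because the running numbers of the count columns match no sample title and carry no pairing between groups. Counts limit the rarest members, since Ifi44, Oasl1, Isg20, and Ifit3b were under 10 CPM in each group.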

Other observations

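Some members split the MAL-BG libraries in a way that no group comparison holds. MAL-BG replicates 1, 5, and 6 differed from replicates 2, 3, 4, and 7 in both Eif2ak2 and Lgals3bp, in opposite directions. The first 3 libraries had 48.3, 50.4, and 48.9 CPM of Eif2ak2 and 278, 207, and 231 CPM of Lgals3bp, and the other 4 had 115, 109.7, 85.4, and 82.2 CPM of Eif2ak2 and 79.5, 102, 90.6, and 101 CPM of Lgals3bp. Without overlap between the same libraries, Trim25, Ifit1, Bst2, Samhd1, and Rsad2 were lower in replicates 1, 5, and 6, and Isg20, Ifih1, Mx1, and Dtx3l higher. Samhd1 did so by a narrow margin, with 219.2 CPM in replicate 5 and 219.9 CPM in replicate 3. All these genes were singled out after their values were seen, the libraries carry 1 label and no named batch, and no test was made of this split. The share of all genes that separate on the same split was not counted. Whether the split is particular to the members is therefore not known.

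Summed over all members the libraries ran from 2014 CPM (CON replicate 2) to 2970 CPM (MAL-BG replicate 3). By role, the sums of the 4 IFIT genes were 45.8 to 93.8 CPM in CON, 62.0 to 78.7 in MAL, and 58.3 to 159 in MAL-BG, and those of the 5 sensors 116 to 163, 153 to 187, and 107 to 156 CPM. For the sensors 0 of 5 members lay above 0 on the log2 scale against MAL, where 7541 of 14565 genes lay below 0. Of these 5 only Zbp1 passed the test, and Ddx58 (-0.098 ± 0.11) and Dhx58 (-0.085 ± 0.14) lay within 1 SE of 0.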
